A study of Homo sapiens with 12 samples.

Results

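The genes described here encode 9 amino acid transporters of the plasma membrane: SLC1A1, SLC1A3, SLC1A4, SLC1A5, SLC7A1, SLC7A5, SLC38A1, SLC38A2 and SLC43A1. They were chosen by name, as a group called neutral and cationic amino acid transporters, and every probe set of each gene was taken. A probe set is the group of probes whose signals an Affymetrix array summarises into 1 expression value. All 9 genes were measured, with 18 of the 22215 probe sets tested, and they are 9 of the 11963 genes with a probe set of their own. SLC1A1 and SLC1A3 are known as carriers of glutamate and aspartate, which are acidic, so the name of the group covers only the other 7.

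Expression was measured on 12 arrays of RCC4, a human cell line established from clear cell renal carcinoma, with 3 arrays in each of 4 groups. The groups were cells given siRNA against YAP and then erastin (siYAP erastin), siRNA against YAP and then the solvent DMSO (siYAP DMSO), a non-targeting siRNA and erastin (siNT erastin), and the non-targeting siRNA and DMSO (siNT DMSO). The siRNA was given for 2 days, and erastin at 1 µM or DMSO for 7 hours. YAP is a transcriptional co-activator of the Hippo pathway, and erastin blocks system xc-, the exchanger that brings in cystine in return for glutamate. All 4 groups share the single cell line and a transfected siRNA, the labels do not give the number of siRNA sequences, and the submitters call the arrays of a group biological triplicates. Values are log2 expression values made by the authors, so a difference of 1 is 2-fold. A higher value of a probe set than of another does not show more mRNA, since probes differ in brightness, and levels are therefore compared only within a probe set. Names of probe sets ending in s_at mark probes shared by several transcripts, and x_at marks some probes that may also bind other transcripts, so the brightest probe sets of SLC1A4 and SLC38A2 are given beside the other probe sets of these genes.

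Amino acids cross the plasma membrane through carriers that either accumulate them with the sodium gradient or exchange those inside for those outside. SLC38A1 and SLC38A2 (SNAT1 and SNAT2) take up glutamine and other small neutral amino acids with sodium. SLC1A4 and SLC1A5 (ASCT1 and ASCT2) exchange neutral amino acids such as alanine, serine and cysteine, and SLC1A5 also exchanges glutamine. SLC7A5 (LAT1) exchanges intracellular glutamine for leucine and other large neutral amino acids. SLC7A1 (CAT1) carries arginine and lysine. When amino acids run short, the kinase GCN2 (EIF2AK4) phosphorylates the initiation factor eIF2α, translation of the transcription factor ATF4 increases, and ATF4 binds with C/EBP proteins at composite sites of its target genes, several transporter genes among them.

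Sequences before the start sites were read from RefSeq on GRCh38.p14 for windows of 300 bases, from 250 before to 50 after each annotated start. The 9 genes had 16 such windows. They were searched on both strands for TGATGNAA, the form of the ATF4 and C/EBP composite site. It stood in 1 window each of 5 of the 9 genes, against 4.46% of all 27305 genes with a window, or in 5 of 16 windows against 3.62% of all 35116. The 5 windows are shown because the ATF4 response moved beside several of these transporters in the values below, with the match in capitals (the reverse complement TTNCATCA where the site lies on the other strand).
SLC1A4 promoter at chr2:64989149-64989448 on the plus strand: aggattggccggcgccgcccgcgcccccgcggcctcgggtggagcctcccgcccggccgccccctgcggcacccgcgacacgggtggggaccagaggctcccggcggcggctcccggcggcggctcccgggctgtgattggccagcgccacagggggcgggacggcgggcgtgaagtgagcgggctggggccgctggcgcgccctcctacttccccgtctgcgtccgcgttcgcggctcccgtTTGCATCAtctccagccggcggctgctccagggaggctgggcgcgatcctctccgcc
SLC1A5 promoter at chr19:46784765-46785064 on the minus strand: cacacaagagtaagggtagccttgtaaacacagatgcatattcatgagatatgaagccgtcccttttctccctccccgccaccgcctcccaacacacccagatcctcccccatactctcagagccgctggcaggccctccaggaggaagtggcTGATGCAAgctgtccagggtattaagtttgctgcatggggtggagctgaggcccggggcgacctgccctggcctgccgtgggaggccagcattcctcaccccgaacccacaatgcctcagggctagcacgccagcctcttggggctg
SLC1A3 promoter at chr5:36596338-36596637 on the plus strand: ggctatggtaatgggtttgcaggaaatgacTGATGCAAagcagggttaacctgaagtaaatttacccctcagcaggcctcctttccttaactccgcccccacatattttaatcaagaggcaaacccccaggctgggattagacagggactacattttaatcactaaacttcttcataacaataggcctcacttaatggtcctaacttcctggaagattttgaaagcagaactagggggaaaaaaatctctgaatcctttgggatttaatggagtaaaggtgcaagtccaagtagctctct
SLC7A1 promoter at chr13:29595639-29595938 on the minus strand: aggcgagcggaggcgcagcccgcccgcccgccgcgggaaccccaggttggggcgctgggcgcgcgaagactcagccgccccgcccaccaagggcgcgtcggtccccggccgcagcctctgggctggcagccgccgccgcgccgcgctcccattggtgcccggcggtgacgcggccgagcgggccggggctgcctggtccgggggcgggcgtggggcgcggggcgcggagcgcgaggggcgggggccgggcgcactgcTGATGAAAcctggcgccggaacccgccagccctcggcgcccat
SLC38A1 promoter at chr12:46266467-46266766 on the minus strand: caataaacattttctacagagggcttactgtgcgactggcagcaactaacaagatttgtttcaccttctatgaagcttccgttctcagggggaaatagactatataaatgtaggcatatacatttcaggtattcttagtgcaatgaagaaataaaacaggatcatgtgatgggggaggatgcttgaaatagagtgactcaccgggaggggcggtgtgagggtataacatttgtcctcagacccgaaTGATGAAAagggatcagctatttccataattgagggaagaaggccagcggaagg
The match in SLC1A4 began 7 bases before the start site and that in SLC38A1 4 bases before it. Those in SLC1A5 and SLC1A3 lay 97 and 220 bases before the start of the window shown, and that in SLC7A1 lay 8 bases after its start. SLC1A4, SLC1A5, SLC1A3 and SLC38A1 have further annotated starts, whose windows held no match to TGATGNAA. In SLC1A5 the match belongs to the most downstream of its annotated starts. Windows of SLC38A2, SLC7A5, SLC1A1 and SLC43A1 held no match, which says only that these letters are not in these windows. Whether matches go along with the calls below was not tested. SLC1A4, SLC1A5 and SLC7A1 hold a match and were each called in at least 1 comparison. SLC1A3 and SLC38A1 hold a match and were called in no comparison. SLC38A2, SLC7A5 and SLC1A1 hold none and were each called in at least 1 comparison. SLC43A1 holds none and was not called. GGAATG, the core of the TEAD site through which YAP acts on DNA, stood in 2 of the 16 windows (SLC1A3 and SLC1A5) against 14.0% of all windows. CACGTG, the E-box of MYC and related factors, stood in 3 (SLC1A5, SLC7A5 and SLC43A1) against 7.26%. No match overlapped another, and a match is not evidence of binding.

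The silenced gene was checked first. YAP1 stood at 4.68, 6.21 and 4.90 in siYAP erastin, 4.18, 4.88 and 4.81 in siYAP DMSO, 8.47, 8.52 and 8.65 in siNT erastin, and 8.55, 8.59 and 8.47 in siNT DMSO. All 6 siYAP arrays lay below all 6 siNT arrays, and siYAP erastin replicate 2 kept more YAP1 than the other siYAP arrays. Without that array limma called 11 member probe sets for silencing under erastin, against 13 with it, and 3 for erastin in siYAP cells, against 4 with it. Such losses were not particular to that array. Without siYAP erastin replicate 1 the count for silencing under erastin was also 11. Without siYAP erastin replicate 3 the count for erastin in siYAP cells was also 3. Array medians lay between 6.49 and 6.52, arrays of a group correlated at 0.9955 to 0.9986, and the median standard error of a log2 change was 0.0845. Of 8 markers of clear cell renal carcinoma lines 6 were measured, with median levels of 9.75 to 10.10 over the groups. Of the 6, limma called 2 higher and 2 lower after silencing, both under erastin and in DMSO. Of all genes it called 19% higher and 14% lower after silencing under erastin, and 17% higher and 14.6% lower in DMSO. With erastin it called 0 of the 6 (2 at an unadjusted p under 0.05 in siYAP cells and 0 in siNT cells). Summed up as medians, immune markers (7 measured) stood at 4.13 to 4.25, endothelial markers (6) at 4.04 to 4.09 and fibroblast markers (6) at 4.50 to 4.65 over the 4 groups, with COL1A1, at 7.45 to 7.60, far above the other fibroblast markers' median. Limma called none of these markers of other cells in any comparison. At an unadjusted p under 0.05 the count was 1 fibroblast marker, with erastin in siYAP cells. The 3' minus 5' signal of the ACTB control probes, which grows as RNA breaks down, averaged 3.54 ± 0.179 in siYAP erastin, 2.59 ± 0.955 in siYAP DMSO, 2.26 ± 0.691 in siNT erastin and 2.68 ± 0.282 in siNT DMSO on the log2 scale (SD, n = 3 each). The same measure of GAPDH had another order, 0.169 ± 0.039 in siYAP erastin, 0.216 ± 0.012 in siYAP DMSO, 0.146 ± 0.076 in siNT erastin and 0.182 ± 0.068 in siNT DMSO. The part of RNA quality in the results below was not tested. In bulk RNA, fewer cells and less mRNA per cell cannot be told apart.

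**Figure D1:**
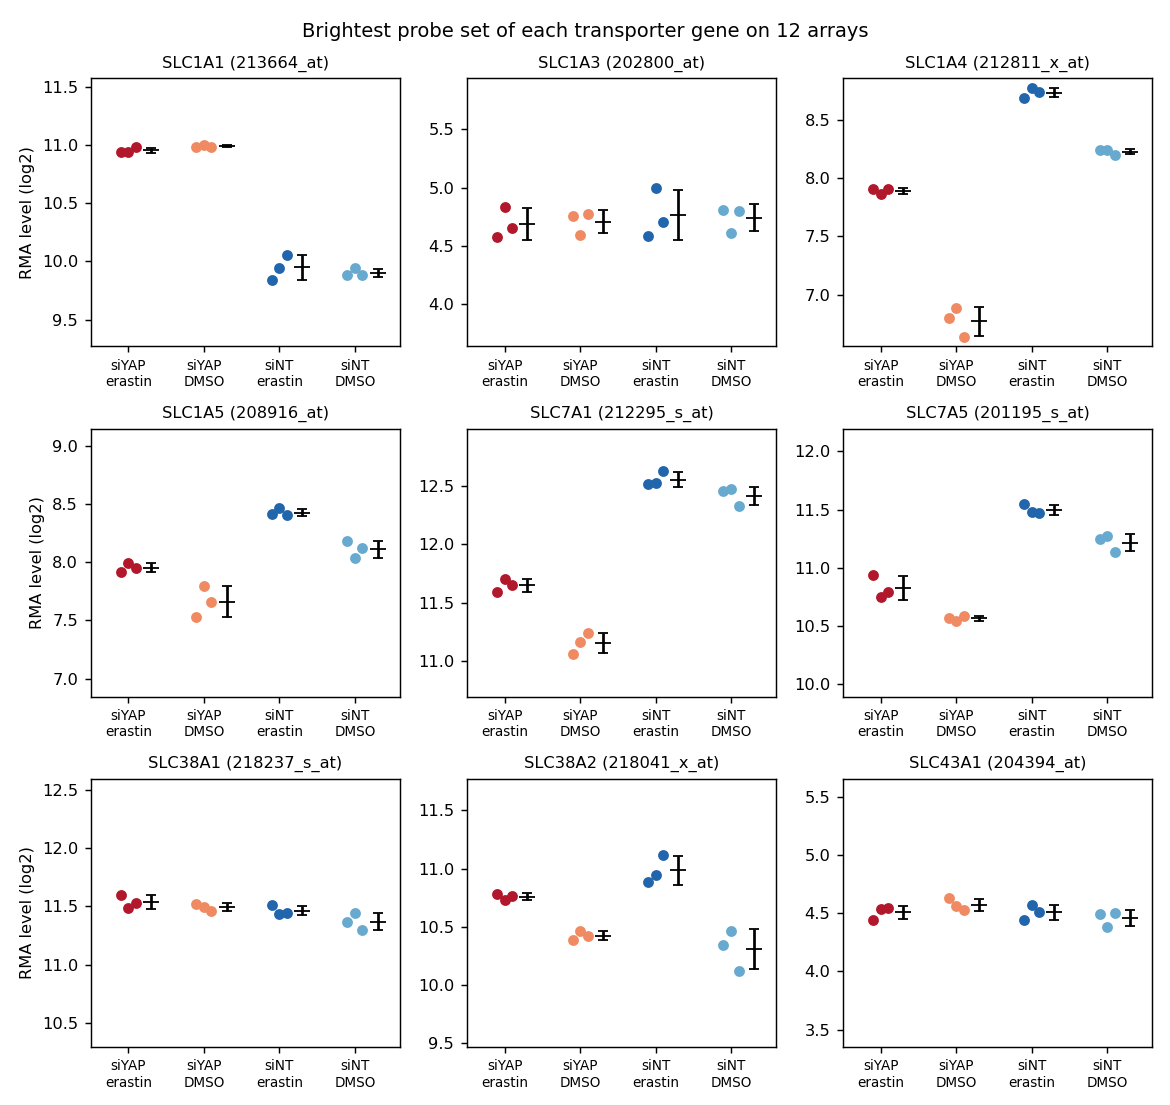
Log2 expression (y axes) of the brightest probe set of each of the 9 transporter genes on every array, by group (x axis), each panel spanning the same number of log2 units. Coloured points are arrays, and black marks are group means with SD; SLC1A4, SLC1A5, SLC7A1 and SLC7A5 stand in the order siYAP DMSO, siYAP erastin, siNT DMSO, siNT erastin from low to high, while SLC1A1 is higher on every siYAP array.

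YAP silencing in DMSO asks how the transporters differed between siYAP and siNT cells without erastin. SLC1A4 and SLC7A1 fell most, to levels 2.74-fold and 2.40-fold lower by their brightest probe sets, SLC7A5 and SLC1A5 fell less, and SLC1A1 rose to 2.12-fold its siNT level. SLC38A1, SLC38A2, SLC1A3 and SLC43A1 did not pass the test. Of the 18 member probe sets limma called 12 at an adjusted p under 0.05, 2 higher and 10 lower, where it called 27.4% of all probe sets (14.4% higher, 12.9% lower). By the brightest probe set of each gene, 1 of 9 was higher and 4 were lower, where 17% of all genes were higher and 14.6% lower. Arrays did not overlap between the groups for 14 of the 18, where 40.8% of all probe sets had none overlapping. The median log2 change was -0.31 over the 18, against 0.02 over all probe sets. SLC1A4 and SLC7A1 have several probe sets each and weigh more in this median. Over the 9 genes by brightest probe set it was -0.03, against 0.02 over all genes. Leaving out 1 array at a time gave 10 (without siYAP DMSO replicate 2) to 13 calls (without siNT DMSO replicate 3).

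Of the glutamate carriers, SLC1A1 (EAAT3, which also carries cysteine) stood at 10.98, 11.00 and 10.98 in siYAP DMSO and at 9.88, 9.94 and 9.88 in siNT DMSO by its brightest probe set, 213664_at. All siYAP arrays were about 1 unit above the siNT arrays, with very little spread between them. The log2 change was 1.09 (SE 0.060, adjusted p = 9.15e-08), and the dimmer 206396_at rose as well, by 0.69 (SE 0.11, adjusted p = 0.000407). SLC1A3 (EAAT1) had a mean level at percentile 27.5 of all probe sets and means of 4.71 ± 0.099 in siYAP DMSO and 4.74 ± 0.11 in siNT DMSO (SD, n = 3 each), with overlapping arrays and a log2 change of -0.03 (adjusted p = 0.874).

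The neutral amino acid exchangers of the same family, SLC1A4 and SLC1A5, fell. SLC1A4 stood at 6.80, 6.88 and 6.64 in siYAP DMSO, against 8.24, 8.24 and 8.20 in siNT DMSO, on 212811_x_at. The highest siYAP array lay more than 1 unit below the lowest siNT array. Its change of -1.46 (SE 0.064, adjusted p = 2.73e-08) had the 16th lowest p of all 22215 probe sets. Changes on 209610_s_at and 212810_s_at were -1.60 (SE 0.083) and -1.61 (SE 0.089), or 3.03-fold and 3.05-fold lower. The dimmer 209611_s_at fell by 0.23 (adjusted p = 0.0126), a call lost without siYAP DMSO replicate 2 (adjusted p = 0.0582). SLC1A5, the glutamine exchanger, stood at 7.53, 7.79 and 7.66 in siYAP DMSO, against 8.18, 8.03 and 8.12 in siNT DMSO. The groups did not overlap, and the change of -0.45 (SE 0.070, adjusted p = 0.000312) is 1.37-fold lower.

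SLC7A1, the arginine and lysine carrier, has 5 probe sets. The brightest, 212295_s_at, stood at 11.06, 11.16 and 11.24 in siYAP DMSO and 12.45, 12.47 and 12.33 in siNT DMSO. Every siYAP array lay more than 1 unit below every siNT array, and the change was -1.27 (SE 0.066, adjusted p = 6.45e-08). It was -1.06 on 212290_at (SE 0.13, adjusted p = 3.63e-05) and -0.86 on 215979_s_at (SE 0.11, adjusted p = 7.38e-05). Changes on the other two were smaller, -0.28 on 212292_at (adjusted p = 0.0288) and -0.34 on 206566_at (adjusted p = 0.102), which lay at percentile 20.5 of all levels. The call of each depended on single arrays. That of 212292_at was lost without siNT DMSO replicate 1 or 2 (adjusted p = 0.0519 and 0.115) and without siYAP DMSO replicate 1 or 2 (0.125 and 0.1), and 206566_at was called without siNT DMSO replicate 3 (0.00428). The 5 probe sets had the same sign.

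Among the large neutral carriers, SLC7A5 stood at 10.57, 10.54 and 10.59 in siYAP DMSO and 11.24, 11.27 and 11.13 in siNT DMSO. The groups were well apart, at a change of -0.65 (SE 0.064, adjusted p = 6.99e-06), or 1.57-fold lower. SLC43A1 (LAT3, a sodium-independent carrier of branched-chain amino acids) was near the bottom of the scale, at percentile 24.5 of all levels, and averaged 4.57 ± 0.051 in siYAP DMSO and 4.46 ± 0.066 in siNT DMSO (SD, n = 3 each), with a change of 0.12 (adjusted p = 0.203). The sodium-coupled carriers had small changes. SLC38A1 stood at 11.52, 11.50 and 11.46 in siYAP DMSO and 11.37, 11.44 and 11.30 in siNT DMSO. Its groups did not overlap, but the change of 0.12 (SE 0.058, adjusted p = 0.145) did not pass. SLC38A2 had changes of 0.11 (adjusted p = 0.39) on 218041_x_at and 0.11 (adjusted p = 0.426) on 220924_s_at.

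Under erastin, siYAP cells differed from siNT cells in the same 5 genes by their brightest probe sets, with changes of -0.84 in SLC1A4 and -0.91 in SLC7A1. Limma called 13 of the 18 member probe sets, 2 higher and 11 lower, where it called 28.9% of all probe sets (16% higher, 12.9% lower). By brightest probe set 1 of 9 genes was higher and 4 were lower, where 19% of all genes were higher and 14% lower. Arrays did not overlap for 15 of the 18, against 40.1% of all probe sets. Medians were -0.43 over the 18 and 0.00 over all probe sets. Over the 9 genes by brightest probe set the median was -0.22, against 0.01 over all genes. Leaving out 1 array at a time gave 11 (without siNT erastin replicate 3 or siYAP erastin replicate 1 or 2) to 14 calls (without siNT DMSO replicate 2 or 3).

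SLC1A4 stood at 7.91, 7.86 and 7.91 in siYAP erastin, against 8.69, 8.77 and 8.74 in siNT erastin. All siYAP arrays were lower, with little spread in either group. The change of -0.84 (SE 0.064, adjusted p = 9.67e-07) is 1.79-fold lower, and 209610_s_at and 212810_s_at gave -0.96 and -0.76, while 209611_s_at gave -0.16 (adjusted p = 0.0756). SLC7A1 stood at 11.59, 11.70 and 11.65 in siYAP erastin, against 12.52, 12.52 and 12.63 in siNT erastin. The groups did not overlap, and the change was -0.91 (SE 0.066, adjusted p = 6.99e-07). Its other probe sets fell by 0.74, 0.53, 0.39 and 0.49. The last of these, on 206566_at (adjusted p = 0.021), was not called without siNT erastin replicate 1 or 3 (adjusted p = 0.0708 and 0.0632) or siYAP erastin replicate 1 or 2 (0.0649 and 0.0868).

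SLC7A5 stood at 10.94, 10.75 and 10.79 in siYAP erastin, against 11.55, 11.48 and 11.47 in siNT erastin, a change of -0.67 (SE 0.064, adjusted p = 5.64e-06). SLC1A5 stood at 7.91, 7.99 and 7.95 in siYAP erastin, against 8.41, 8.46 and 8.40 in siNT erastin, a change of -0.47 (SE 0.070, adjusted p = 0.000206). Neither gene's groups overlapped, and both exchangers were lower on every siYAP array. SLC1A1 stood at 10.94, 10.93 and 10.98 in siYAP erastin, against 9.84, 9.94 and 10.06 in siNT erastin, again without overlap. It rose by 1.00 (SE 0.060, adjusted p = 1.61e-07) on 213664_at and by 0.43 (SE 0.11, adjusted p = 0.0104) on 206396_at.

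SLC38A2 was lower in siYAP erastin on 1 of its 2 probe sets. Its change was -0.22 on 218041_x_at (adjusted p = 0.0683) and -0.27 on 220924_s_at (adjusted p = 0.0334). Both values lay close to the threshold. The call on 220924_s_at was lost without siNT erastin replicate 2 or 3 (adjusted p = 0.086 and 0.11) or siYAP erastin replicate 1, 2 or 3 (0.0656, 0.099 and 0.076), and 218041_x_at was called without siNT DMSO replicate 2 or 3 (0.0462 and 0.0276). SLC38A1 (0.07, adjusted p = 0.413), SLC1A3 (-0.08, adjusted p = 0.675) and SLC43A1 (adjusted p = 1.0) did not pass.

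**Figure D2:**
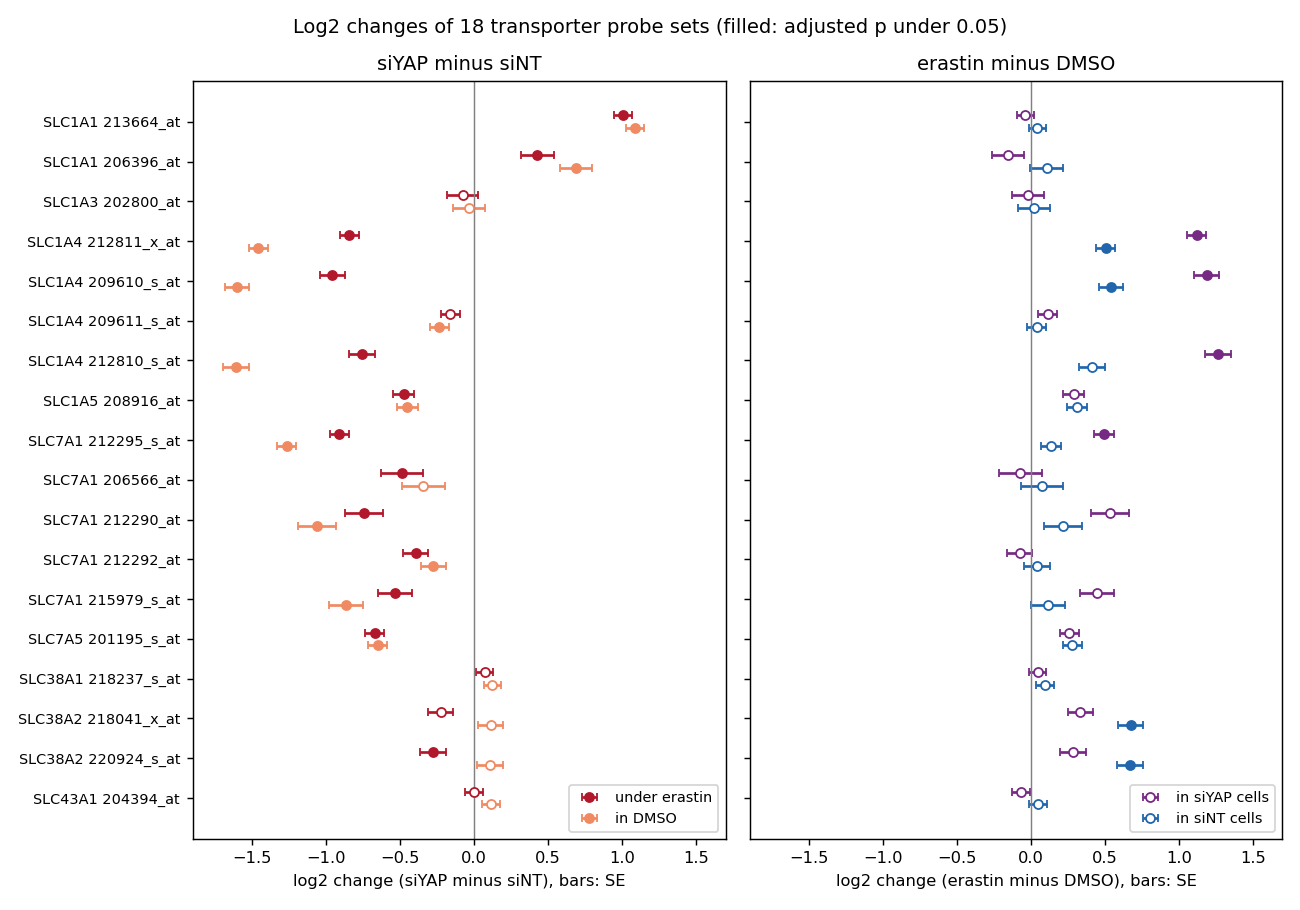
Log2 changes with their standard errors (x axis) of the 18 member probe sets (y axis) in the comparisons of silencing and of erastin; filled points passed an adjusted p under 0.05 and open points did not. Falls after silencing are largest on 3 probe sets of SLC1A4 and the brightest of SLC7A1, and rises with erastin are largest on the same 3 probe sets of SLC1A4 in siYAP cells.

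Erastin in siYAP cells asks how the transporters differed between erastin and DMSO after silencing. It was followed by rises of SLC1A4 and SLC7A1, and no member was called lower. Limma called 4 of the 18 probe sets, all higher, where it called 0.171% of all probe sets (0.162% higher, 0.009% lower). By brightest probe set these were 2 of 9 genes, where 0.234% of all genes were called. Arrays did not overlap for 11 of the 18, against 21.0% of all probe sets. Medians were 0.27 over the 18 and 0.00 over all probe sets. Over the 9 genes by brightest probe set the median was 0.26, against 0.0019 over all genes. The siYAP DMSO arrays of this comparison are also those of the silencing comparison in DMSO, so a high or low value on them enters both.

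SLC1A4 stood at 7.91, 7.86 and 7.91 in siYAP erastin, against 6.80, 6.88 and 6.64 in siYAP DMSO. Each erastin array was close to 1 unit or more above each DMSO array. The change was 1.12 on 212811_x_at (SE 0.064, adjusted p = 2.25e-06), 1.19 on 209610_s_at (SE 0.083, adjusted p = 1.53e-05) and 1.26 on 212810_s_at (SE 0.089, adjusted p = 1.53e-05), or 2.17-fold, 2.28-fold and 2.40-fold higher. These had the 5th, 7th and 8th lowest p of all 22215 probe sets. In siYAP erastin SLC1A4 still averaged 7.89 ± 0.026, against 8.23 ± 0.025 in siNT DMSO (SD, n = 3 each), with no overlap of arrays.

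SLC7A1 stood at 11.59, 11.70 and 11.65 in siYAP erastin, against 11.06, 11.16 and 11.24 in siYAP DMSO. The groups did not overlap, and the change was 0.49 (SE 0.066, adjusted p = 0.00737), or 1.41-fold higher. The call was lost without siYAP erastin replicate 2 (adjusted p = 0.0578) or 3 (0.0553), and with only the 6 arrays compared (0.0574). Of its other probe sets, 212290_at had 0.54 (adjusted p = 0.227) and 215979_s_at 0.45 (adjusted p = 0.262), while 212292_at and 206566_at had -0.08 and -0.07. SLC38A2 had means of 10.76 ± 0.028 in siYAP erastin and 10.42 ± 0.039 in siYAP DMSO (SD, n = 3 each), with no overlap, and its change of 0.34 did not pass (adjusted p = 0.274). Nor did SLC1A5 (0.29, adjusted p = 0.237) or SLC7A5 (0.26, adjusted p = 0.243). Under limma with a trended and robust variance SLC7A5 did pass (adjusted p = 0.0345). SLC1A1 (-0.04), SLC38A1 (0.05), SLC1A3 (-0.02) and SLC43A1 (-0.07) had changes near 0.

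Erastin in siNT cells asks the same of cells in which YAP was not silenced. SLC38A2 and SLC1A4 rose, SLC38A2 to 1.60-fold and SLC1A4 to 1.42-fold by their brightest probe sets, and no member was called lower. Limma called 4 of the 18 probe sets, all higher, where it called 0.297% of all probe sets (0.221% higher, 0.0765% lower). By brightest probe set these were 2 of 9 genes, where 0.435% of all genes were called and 0.326% were higher. Arrays did not overlap for 9 of the 18, against 12.4% of all probe sets. Median changes were 0.13 over the 18 and 0.00 over all probe sets. Over the 9 genes by brightest probe set the median was 0.14, against -0.0035 over all genes. Calls depended on the arrays in the fit, which numbered 12: with only the 6 arrays compared none of the 4 passed (adjusted p = 0.0762 to 0.256), and 10 of all probe sets did.

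SLC38A2, the sodium-coupled carrier whose mRNA is known to rise when cells lack amino acids, stood at 10.89, 10.95 and 11.12 in siNT erastin and 10.34, 10.47 and 10.12 in siNT DMSO on 218041_x_at. The lowest erastin array was above the highest DMSO array, although both groups spread more than the siYAP groups did. The change was 0.67 (SE 0.085, adjusted p = 0.00381), and 220924_s_at gave 0.67 (SE 0.088, adjusted p = 0.00532). The change of SLC38A1 was 0.10 (adjusted p = 0.709). SLC1A4 stood at 8.69, 8.77 and 8.74 in siNT erastin and 8.24, 8.24 and 8.20 in siNT DMSO, with no overlap and a change of 0.51 (SE 0.064, adjusted p = 0.00396). On 209610_s_at it rose by 0.54 (adjusted p = 0.0172), a call lost without siNT DMSO replicate 1 or 3 (adjusted p = 0.0946 and 0.0907). On 212810_s_at the change of 0.41 (adjusted p = 0.1) did not pass, but it did without siYAP DMSO replicate 2 (adjusted p = 0.0227).

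SLC1A5 and SLC7A5 had erastin arrays above all DMSO arrays without passing the test: their changes were 0.31 (SE 0.070, adjusted p = 0.109) and 0.28 (SE 0.064, adjusted p = 0.118). Under limma with a trended and robust variance both passed (adjusted p = 0.0443 for SLC1A5 and 0.0136 for SLC7A5). With array weights SLC7A5 passed as well (adjusted p = 0.0439). The 5 probe sets of SLC7A1 differed by 0.04 to 0.22, with adjusted p = 0.608 for the brightest. SLC1A1 (0.05 on 213664_at), SLC1A3 (0.02) and SLC43A1 (0.05) had changes near 0.

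**Figure D3:**
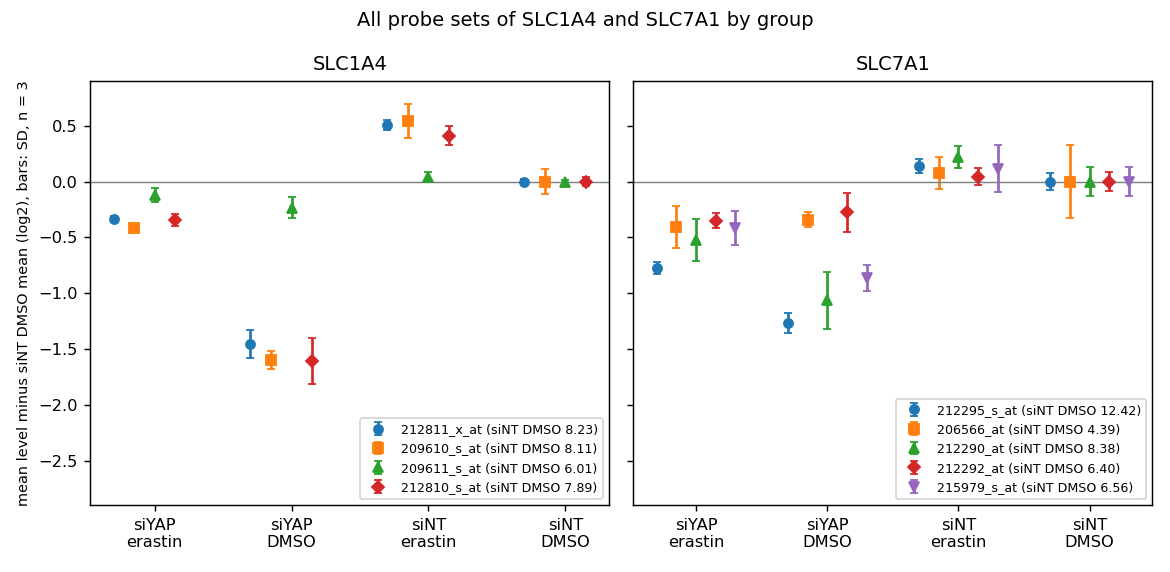
Group means of every probe set of SLC1A4 and SLC7A1 by group (x axis), as the difference from the probe set's own siNT DMSO mean on the log2 scale (y axis), with SD bars (n = 3). In siYAP DMSO, 3 probe sets of SLC1A4 and 2 of SLC7A1 (212295_s_at and 212290_at) lie more than 1 unit below siNT DMSO, while the dimmer 209611_s_at, 206566_at and 212292_at lie within 0.5 units of it in every group.

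Whether the erastin response differed between siYAP and siNT cells was tested as an interaction, the response in siYAP cells minus that in siNT cells. Limma called 0 of the 18 member probe sets and 0 of all 22215 (0% of the background). At an unadjusted p under 0.05 the counts were 6 of 18 and 2005 of 22215. SLC1A4 had the lowest and the second lowest p of all probe sets: the interaction was 0.85 on 212810_s_at (SE 0.13, unadjusted p = 1.77e-05, adjusted p = 0.202) and 0.61 on 212811_x_at (SE 0.091, unadjusted p = 1.82e-05, adjusted p = 0.202). On 209610_s_at it was 0.64 (SE 0.12, adjusted p = 0.333), and on the dim 209611_s_at 0.07. Under a trended and robust variance model the first pair had adjusted p = 0.0384 each, and with array weights 212810_s_at, 212811_x_at and 209610_s_at all had adjusted p = 0.0276. Without siYAP DMSO replicate 2, 212810_s_at gave 0.97 and adjusted p = 0.00996, and over all arrays left out in turn its interaction was 0.77 to 0.97 with adjusted p = 0.00996 to 0.775. That array had the lowest ACTB 3' minus 5' signal of its group, 1.49, against 3.14 on both others, while its GAPDH value, 0.222, lay within its group (0.202 to 0.223). The part of RNA quality was not tested.

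For the other genes, by brightest probe set, the interaction was 0.36 for SLC7A1 (SE 0.094, adjusted p = 0.444) and -0.34 for SLC38A2 (SE 0.12, adjusted p = 0.515). For SLC38A2 the negative sign means a smaller rise in siYAP cells, and 220924_s_at gave -0.385. The other SLC7A1 probe sets differed in sign. It was 0.32 on 212290_at and 0.33 on 215979_s_at, but -0.12 on 212292_at and -0.15 on 206566_at. For SLC1A5, SLC7A5 and SLC1A1 the interaction was -0.02 (SE 0.099), -0.02 (SE 0.090) and -0.08 (SE 0.085). A p that misses the threshold does not show that the responses were alike.

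Over the 4 groups the transporters fell into a few orders of level. Of the 18 member probe sets 7 stood in the order siYAP DMSO, siYAP erastin, siNT DMSO, siNT erastin from low to high, with no overlap between neighbours, where 0.248% of all probe sets did (55 of 22215). The order was chosen after the values were seen. The 7 belong to SLC1A4 (3), SLC7A1 (2), SLC1A5 and SLC7A5. SLC1A5 averaged 7.95 ± 0.040 in siYAP erastin, 7.66 ± 0.13 in siYAP DMSO, 8.42 ± 0.032 in siNT erastin and 8.11 ± 0.073 in siNT DMSO (SD, n = 3 each). For SLC7A5 the means were 10.83 ± 0.10 in siYAP erastin, 10.57 ± 0.023 in siYAP DMSO, 11.50 ± 0.042 in siNT erastin and 11.22 ± 0.073 in siNT DMSO. In both genes the siYAP erastin arrays thus lay between the siYAP DMSO and the siNT DMSO arrays. SLC38A2 averaged 10.76 ± 0.028 in siYAP erastin, 10.42 ± 0.039 in siYAP DMSO, 10.98 ± 0.12 in siNT erastin and 10.31 ± 0.17 in siNT DMSO. Both erastin groups lay above both DMSO groups, and of neighbours in level only siYAP DMSO and siNT DMSO overlapped. SLC1A1 averaged 10.95 ± 0.025 in siYAP erastin, 10.99 ± 0.0066 in siYAP DMSO, 9.95 ± 0.11 in siNT erastin and 9.90 ± 0.036 in siNT DMSO. Of its neighbours in level only siNT erastin and siNT DMSO overlapped. All neighbours overlapped for SLC38A1, SLC1A3 and SLC43A1.

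The genes whose 12 values lay nearest to those of each called member were found by the root mean square difference in log2 units over the 12 arrays, each gene set relative to its own siNT DMSO mean. For SLC1A4 they were ASNS (0.291), which makes asparagine, and TRIB3 (0.301), a pseudokinase induced by ATF4, where SLC1A4 itself lay 0.79 from its siNT DMSO mean. For SLC1A5 they were ATF4 (0.0674) and the mitochondrial serine enzyme SHMT2 (0.116), and for SLC7A5 the tyrosyl-tRNA synthetase YARS1 (0.0985) and LZTFL1 (0.109). SLC38A2 was nearest to the transcription factor CEBPB (0.121) and the lipoprotein receptor VLDLR (0.156). SLC7A1 was nearest to BECN1 (0.152) and ANXA3 (0.158), and SLC1A1 to UST (0.0405) and ATP6V1A (0.0688). These distances are descriptions over arrays that share their groups.

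Related genes were taken as 4 lists, each counted by brightest probe set. Of the amino acid response genes 17 of 20 were measured. After silencing 10 were lower and 1 higher under erastin, and 10 lower and 2 higher in DMSO. Of all genes 14% were lower and 19% higher under erastin, and 14.6% lower and 17% higher in DMSO. List medians were -0.26 under erastin and -0.35 in DMSO, against 0.01 and 0.02 over all genes. Erastin was followed by rises of 9 in siYAP cells and 10 in siNT cells and by no falls. Of all genes 0.234% were higher in siYAP cells and 0.326% in siNT cells. Here the list medians were 0.40 and 0.42, against 0.00 over all genes in both. After silencing, ASNS fell by 0.80 with erastin present (adjusted p = 2.76e-07) and 1.11 in DMSO (adjusted p = 3.95e-08), and with erastin it rose by 1.12 in siYAP cells and 0.81 in siNT cells. ATF4 itself fell after silencing, with erastin by 0.39 (adjusted p = 0.00012) and in DMSO by 0.43 (adjusted p = 5.52e-05). With erastin it rose by 0.31 in siYAP cells (adjusted p = 0.0422), and the change in siNT cells was 0.27 (adjusted p = 0.0675). TRIB3 fell by 0.90 with silencing in DMSO, and ATF3, a stress-induced factor, rose by 1.00. With erastin, CHAC1, which breaks down glutathione, rose by 1.64 in siYAP cells and 1.63 in siNT cells. DDIT4, an inhibitor of mTORC1, rose by 1.15 in siYAP cells and 1.52 in siNT cells. Both were lower after silencing. Under erastin DDIT4 fell by 1.17 (adjusted p = 1.4e-07), the largest fall of the list there, and CHAC1 by 0.74 (adjusted p = 3.48e-06). In DMSO DDIT4 fell by 0.80 and CHAC1 by 0.75.

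Of 27 measured genes of 32 other amino acid transporters, 3 were higher and 3 lower after silencing under erastin, and 3 higher and 2 lower after silencing in DMSO. Of all genes 19% were higher and 14% lower after silencing under erastin, and 17% higher and 14.6% lower in DMSO. With erastin 1 was higher in siYAP cells and 2 in siNT cells, and none was lower. Of all genes 0.234% in siYAP cells and 0.326% in siNT cells were higher. Medians were 0.01 and -0.03 for silencing under erastin and in DMSO, and 0.00 and 0.04 for erastin in siYAP and siNT cells. SLC7A11, the cystine-carrying subunit of system xc-, rose with erastin by 1.26 in siYAP cells (adjusted p = 1.75e-06) and 0.87 in siNT cells (adjusted p = 6.98e-05). After silencing its change was 0.17 under erastin (adjusted p = 0.093), and it fell by 0.22 in DMSO (adjusted p = 0.0328). SLC3A2, the heavy chain that SLC7A5 and SLC7A11 share, averaged 9.07 ± 0.096 in siYAP erastin, 8.97 ± 0.084 in siYAP DMSO, 9.64 ± 0.064 in siNT erastin and 9.24 ± 0.079 in siNT DMSO (SD, n = 3 each). It fell with silencing by 0.57 under erastin (adjusted p = 5.25e-05) and 0.27 in DMSO (adjusted p = 0.0121). With erastin its change was 0.10 in siYAP cells (adjusted p = 0.694), and it rose by 0.40 in siNT cells (adjusted p = 0.0433). SLC3A1, the heavy chain of the cystine and dibasic amino acid carrier of the kidney, rose with silencing by 0.54 under erastin and 0.87 in DMSO. SLC6A6, the taurine carrier, rose by 0.55 in DMSO, and SLC38A6 fell by 0.60 under erastin.

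Of 22 measured genes of 29 in amino acid sensing by mTORC1, the kinase complex that responds to leucine and arginine, 6 were higher and none lower after silencing under erastin, and 7 higher and 1 lower in DMSO. Medians were 0.09 under erastin and 0.08 in DMSO against 0.01 and 0.02 over all genes. SESN1, a sestrin, rose by 0.62 under erastin and 0.73 in DMSO, and RRAGD, a Rag GTPase, by 0.49 under erastin and 0.50 in DMSO. Limma called 0 of the 22 with erastin, with 3 at an unadjusted p under 0.05 in siYAP cells and 2 in siNT cells. Of 21 measured of 24 enzymes that use the carried amino acids, 1 was higher and 5 lower after silencing under erastin, and 4 higher and 1 lower in DMSO, with medians of -0.09 under erastin and 0.03 in DMSO. After silencing, PSAT1, of serine synthesis, fell by 0.83 under erastin. In DMSO ASS1, which makes argininosuccinate on the way to arginine, rose by 0.45 and BCAT2, a branched-chain aminotransferase, by 0.38. SHMT2 fell by 0.34 under erastin and 0.36 in DMSO. Limma called 0 of the 21 enzymes with erastin, with 2 at an unadjusted p under 0.05 in siYAP cells and 6 in siNT cells. In the interaction no gene of the 4 lists was called, with 4 of the other transporters, 6 of the response genes, 3 of the sensing genes and 3 of the enzymes at an unadjusted p under 0.05. The counts of called genes stand against the shares of all genes called above. For silencing these were 33% in either direction under erastin and 31.6% in DMSO. For erastin they were 0.234% in siYAP cells and 0.435% in siNT cells. Counts at an unadjusted p under 0.05 stand against other totals. Of all 11963 genes, 1141 had such a p for erastin in siYAP cells, 1182 in siNT cells and 1060 in the interaction.

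**Figure D4:**
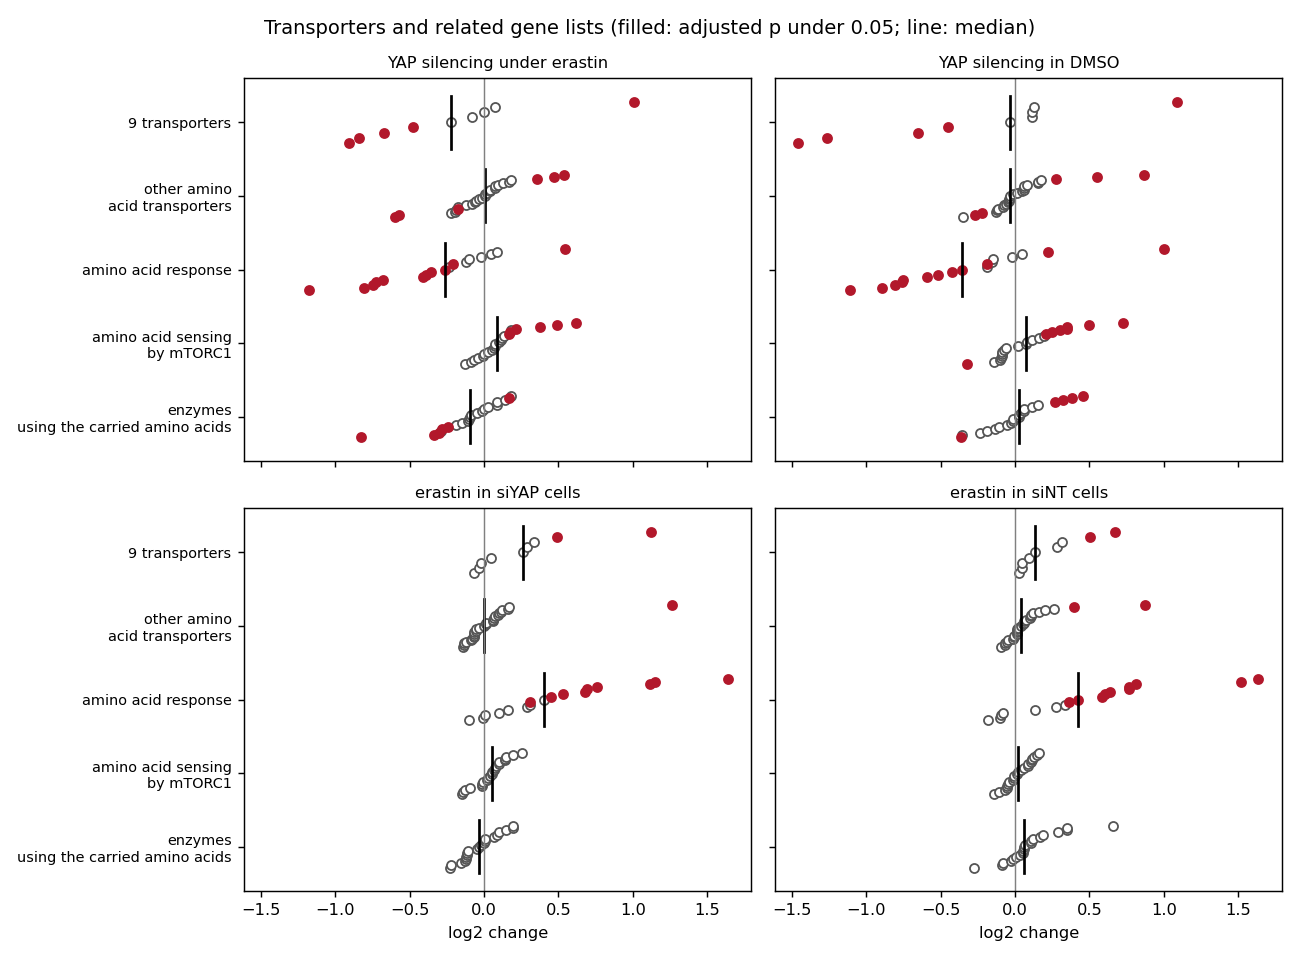
Log2 change (x axis) of each measured gene of the 9 transporters and of the 4 related lists (y axis) in each comparison between groups. Points are genes, filled red where the adjusted p was under 0.05, and vertical lines are list medians. The amino acid response list has 10 of 17 genes called lower after silencing in each treatment and 9 and 10 of 17 higher with erastin in siYAP and siNT cells. Of all genes, 14% under erastin and 14.6% in DMSO were lower after silencing. With erastin 0.234% were higher in siYAP cells and 0.326% in siNT cells.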

How the data were processed

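The 12 arrays were assigned to groups, with their replicate numbers, from the titles of the samples. Per the submitters' processing notes, the authors used RMA in Affymetrix Expression Console, and the log2 scale of the deposited values was read from their range. RMA corrects background, equalises probe signals between arrays and summarises each probe set, so a change in total RNA per cell is not seen and changes of dim probe sets are compressed toward 0. No batch could be tested, since array type, scan dates and software versions are not given here.

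Of 22277 probe sets, 62 array controls were set aside. Of the rest, 19065 carried 1 gene symbol, 1043 several and 2107 none in the platform annotation. By gene ID 19053 matched RefSeq, and no symbol changed. Probe sets with several symbols were not named, and none of these named a member. Where genes are counted, a gene is represented by its brightest probe set, judged by its mean of the 12 arrays.

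With limma 3.58.1 in R 4.3.3 (8 residual and 4.27 prior degrees of freedom), group means were estimated from all 12 arrays, followed by 5 contrasts. Benjamini-Hochberg adjustment ran over all 22215 probe sets within a comparison, and an adjusted p under 0.05 was a call. The submitters call the arrays of a group biological triplicates, but the labels do not say whether these came from separate cultures. The p-values therefore cover only the spread between these samples, which may be technical. The number of arrays limits the precision. The test was checked on simulated data.

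The text names all members, YAP1, SLC3A2, SLC7A11, and of each related list some of the up to 3 called genes with the largest change in a comparison. ATF4, as the factor of the response list, was named in the 4 comparisons between groups after its values were seen. Genes nearest to a member were the 2 with the smallest distance. Members and lists were chosen with earlier results of these data known. Sequences were read from RefSeq tables on GRCh38.p14.

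Alternatives were a fit of the 6 arrays compared, a replicate block, quantile normalization, median centring, a test without the dimmest 30% of probe sets, the brightest probe set per gene, a trended and robust variance, array weights, at least a 2-fold change, leaving out each array, and the submitters' zero transformation (every array beyond 1 log2 unit from the control mean).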

Additional observations from a re-analysis of the deposited data

How the results depend on the processing

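Each of 90 member results (18 probe sets in 5 comparisons) was recomputed under the alternatives, and 0 of 1884 recomputed values reversed a call. Of them 1754 stayed on the same side of the threshold, 74 lost a call, 23 gained one, and 33 turned the sign of a change that was not called. Only quantile normalization, median centring, array weights and leaving out an array of the comparison itself could alter a log2 change. The other alternatives kept it as it was, so they could not reverse a call. With only the 6 arrays compared, erastin in siYAP cells gave 3 member calls (SLC7A1 212295_s_at was lost, adjusted p = 0.0574) and 26 among all probe sets, and erastin in siNT cells 0 and 10. Silencing in DMSO lost SLC7A1 212292_at (adjusted p = 0.0592). The fit with a replicate block gave 12 member calls for silencing in DMSO, 13 under erastin, 4 for erastin in siYAP cells, 3 in siNT cells and 0 for the interaction, and 33 of all probe sets for erastin in siNT cells, where SLC1A4 209610_s_at was lost (adjusted p = 0.0569). The block moved no other count by over 1.5 times. The replicate numbers do not pair the arrays: deviations of 18 same-numbered pairs correlated at -0.42 to 0.17, 3 of them over 0.1, and 2 of 12 arrays correlated best with their own number. Removing the dimmest 30% of probe sets gave 124 calls in all for erastin in siNT cells, and took SLC1A3, SLC43A1 and SLC7A1 206566_at out of the test. With the brightest probe set per gene the member calls were 5 for silencing under erastin and in DMSO, 2 for erastin in siYAP and siNT cells and 0 for the interaction, and 4173 and 4030 genes were called in all for silencing under erastin and in DMSO. A trended and robust variance gave 88 calls in all for erastin in siYAP cells, 7 member calls and 170 in all for erastin in siNT cells, and 2 and 7 for the interaction. Array weights gave 70 and 186 in all for erastin in siYAP and siNT cells, and 3 and 3 for the interaction. A 2-fold minimum left 1, 6 and 0 member calls for silencing under erastin, silencing in DMSO and erastin in siNT cells, and 495, 495, 10 and 5 calls in all for silencing under erastin, silencing in DMSO, erastin in siYAP cells and erastin in siNT cells. The zero transformation left 0, 5 and 0 member calls, and 341, 388, 10 and 4 in all, in the same comparisons; it and the fit of 6 arrays have no interaction. The cause of these shifts was not tested, except that the fold minimum and the zero transformation ask for larger changes and the choice per gene tests fewer probe sets. Leaving out 1 array at a time gave 10 to 13 member calls and 5080 to 6588 in all for silencing in DMSO, 11 to 14 and 5097 to 6471 under erastin, 3 to 4 and 19 to 49 for erastin in siYAP cells, 3 to 5 and 34 to 50 in siNT cells, and 0 to 1 of both for the interaction. The single interaction call came without siYAP DMSO replicate 2. Counts in all for erastin in siYAP cells moved by over 1.5 times without siYAP erastin replicate 2 (25) or 3 (19) and without siYAP DMSO replicate 2 (23). Those in siNT cells did so without siNT erastin replicate 1 (34), siNT DMSO replicate 1, 2 or 3 (34, 36 and 36), siYAP erastin replicate 1, 2 or 3 (41, 41 and 42) or siYAP DMSO replicate 3 (43), against 66 with every array. Dim probe sets (SLC1A3, SLC43A1 and SLC7A1 206566_at) lie near the bottom of the scale, where a change cannot be sized.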
